A study of Mus musculus with 12 samples.

Results

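The wild type erythroblasts of this mouse series are represented by the 3 arrays labelled WT, of 12 arrays in all. The cells came from spleens of mice aged 3 months and were sorted by flow cytometry for Ter119, a surface marker of the red cell lineage, together with a high level of CD71, the transferrin receptor. The remaining 9 arrays belong to mice labelled as knockouts (KO) of E2f8, of Rb, or of both genes, and were not compared here. Each wild type array is called a biological replicate in its title, but strain, sex and the number of mice per array were not given in the sources used here.

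Erythroblasts with high Ter119 and CD71 are red cell precursors that still divide while they import iron, build heme and globin, and assemble the membrane skeleton of the red cell. Erythropoietin keeps these cells alive through its receptor, and factors such as GATA1, KLF1 and the TAL1 complex drive their gene program. In the adult mouse the red pulp of the spleen makes red cells beside B and T lymphocytes and the macrophages that clear old red cells.

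The arrays held 35557 probe sets, of which 21789 carry 1 gene symbol and give 19938 genes. Values are log2 signals and ran from 1.22 to 14.84, with array medians of 6.23, 6.31 and 6.35 in replicates 1, 2 and 3. Genes were ranked by their mean log2 signal over the 3 arrays, and the percentile of a gene is the share of the ranked genes that lie below it. A signal depends on the probes as well as on the RNA, so a rank orders signals and does not measure how much more of one mRNA there is than of another. As a reference for signals too low to read, the 95th percentile of 1212 odorant, taste and pheromone receptor genes was taken in each array, which lay at 5.75, 5.94 and 6.13. A gene above that level in all 3 arrays is called above background, which held for 11566 genes or 58.0% of those ranked. This level is permissive: 12 of 34 genes typical of other tissues, such as liver, muscle and brain, also passed it. With the 99th percentile of the same receptor genes in its place, 2 of those 34 genes passed, and 8097 genes overall.

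Over all genes the replicates gave a similar order, with Spearman's rho of 0.987 for replicates 1 and 2, 0.980 for 1 and 3 and 0.982 for 2 and 3. Among the 1688 genes in the top 10% of every array, rho was 0.90, 0.95 and 0.90 in these pairs. The order of the highest genes thus agreed less in the pairs with replicate 2. Pearson's r across the 19938 genes was 0.987 for replicates 1 and 2, and 0.982 for each of the other pairs, values that describe agreement across genes of the same array type, since genes are not independent. A gene differed by a median of 0.22 log2 units between replicates 1 and 2, by 0.33 between 1 and 3 and by 0.23 between 2 and 3. More than a 2-fold difference was found for 1.03%, 1.05% and 2.34% of genes in these pairs. Among genes above background the shares were 1.44%, 1.07% and 3.61%. The median SD of a gene over the 3 arrays was 0.22 log2 units. It was widest not among the faintest genes but between the 70th and 90th percentiles, at 0.29, and was 0.21 in the top 10%. Of the 100 highest genes of each array, 82 were shared by all 3.

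Lists of genes with known roles were then placed on this ranking. Counts of list members above background are to be read against the 58.0% of all genes that passed. Lists of late red cell maturation, ribosomal proteins, the red cell membrane, histones and heme synthesis stood highest, with median percentiles of 99.1, 97.9, 97.8, 97.5 and 96.7. Genes of the mast cell, basophil and eosinophil list, of the stem and progenitor list, of other tissues and of the granulocyte list stood low, with medians of 26.7, 34.2, 30.2 and 43.0. Among the 100 highest genes, 24 belonged to an erythroid list (175 measured members), 7 to the histone list and 6 to the ribosomal protein list. The top 10% of genes in all 3 arrays held 1688 genes, or 8.47% of those ranked, and contained 27 of 31 late maturation genes, 24 of 33 membrane genes and 14 of 21 heme genes.

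**Figure D1:**
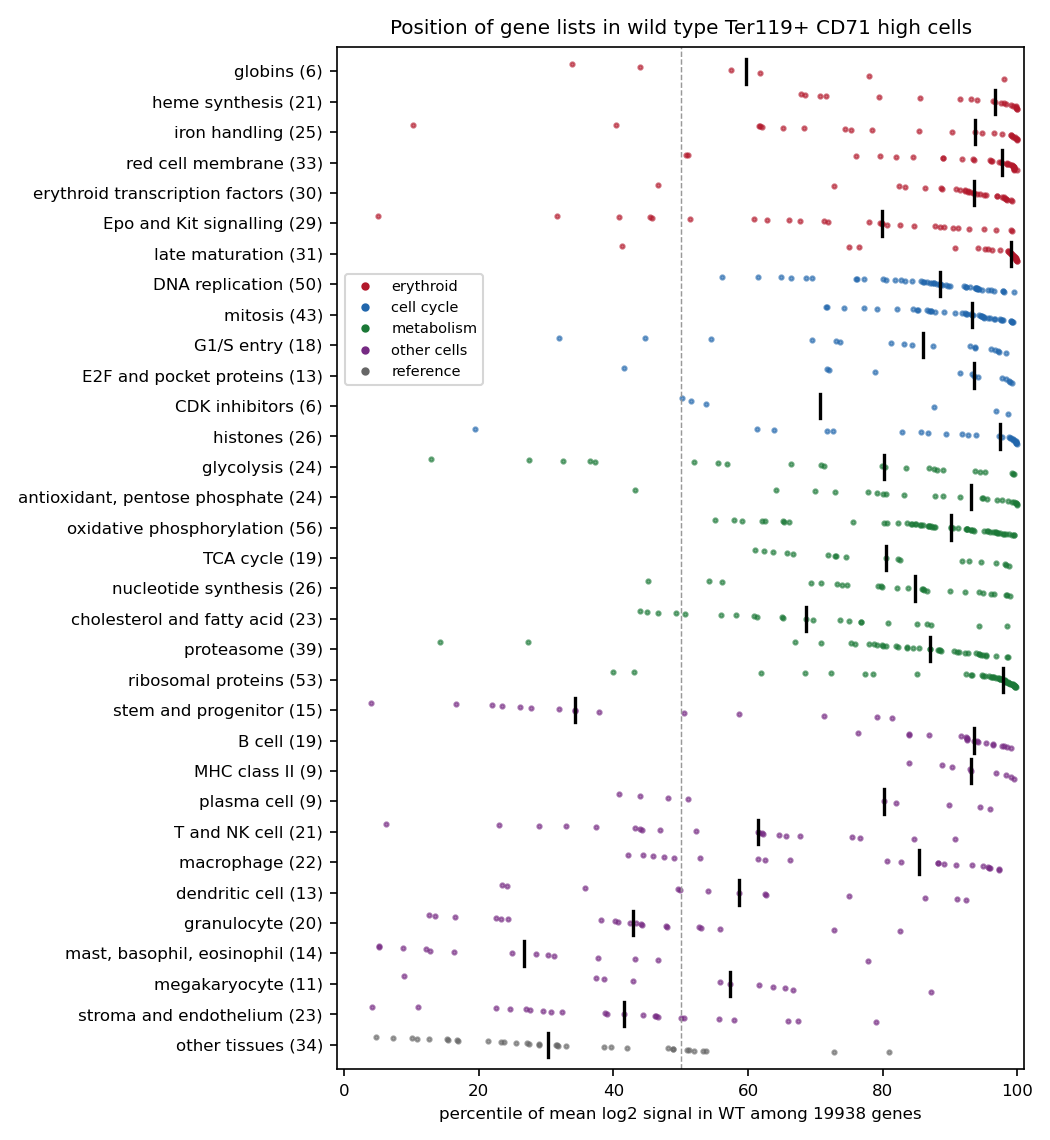
Percentile of the mean log2 signal over the 3 wild type arrays, among 19938 genes, for the members of 33 gene lists. Each point is a gene, black bars are list medians, numbers in brackets are measured members, the dashed line marks the median of all genes, and colours give the kind of list; B cell and MHC class II genes stand as high as erythroid transcription factors, at a median near the 93rd percentile.

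The single highest gene was Rn7sk, the small nuclear RNA of the 7SK particle, at 14.56, 14.59 and 14.58 in replicates 1, 2 and 3. Close below it stood Baiap2l1, a regulator of actin at the cell membrane, at 14.53, 14.57 and 14.57; the lowest of its 3 probe sets read 5.04, below background, so its place rests on the probe set chosen. Both spread by less than 0.1 log2 units over the arrays, at the upper end of the range of the data. The 25 highest genes also included Pabpc1, the poly(A) binding protein, Actb (beta actin), Serinc3, Fam220a, Dcaf12, Prxl2a and Rnf10. Red cell genes filled much of the rest, among them Gpx1, Alas2, Tent5c, Bnip3l, Slc4a1, Fth1, Ftl1, Slc25a39, Cat, Slc25a37, Car2 and Txn1. Less typical of the lineage were Isg20 and Rsad2, both known as interferon-induced antiviral genes, with mean signals of 13.99 and 13.91. Ctse, an intracellular aspartic protease, had a mean of 14.16.

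Heme synthesis was high throughout its list, with all 21 measured genes above background. Alas2, the erythroid enzyme that starts heme synthesis, reached 14.12, 14.29 and 14.32 in replicates 1, 2 and 3, the 8th highest signal of all genes. Alas1, the form used in other cells, stood at 7.99, 7.68 and 7.25, and the arrays of the pair did not come near each other. Slc25a39, a mitochondrial glutathione carrier, gave 13.79, 14.12 and 14.24, lowest in replicate 1. Alad, the second enzyme of the pathway, gave 13.90, 13.29 and 13.93, and here replicate 2 was the low one. Blvrb, a biliverdin reductase, had a mean of 13.67 ± 0.07 (SD, n = 3). The lowest members were Alas1 and Flvcr1, a heme exporter, at the 68.5th and 67.9th percentiles.

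Iron genes ranged from the top of the ranking to near its bottom. Fth1 and Ftl1, the ferritin subunits that store iron, had means of 14.15 ± 0.08 and 14.08 ± 0.11 (SD, n = 3). Slc25a37 (mitoferrin 1), which carries iron into mitochondria of erythroid cells, stood at 13.89, 13.84 and 14.11, while its widely used relative Slc25a28 stood at 8.11, 8.18 and 7.97. Ncoa4, the receptor that delivers ferritin for breakdown, reached 13.52 ± 0.16. The gene for CD71, the marker used in the sort, was Tfrc, at 12.78, 12.37 and 12.50, a percentile of 99.05. Tfr2, the second transferrin receptor, stood at 8.07, 7.36 and 7.46, far under Tfrc in every array. Of 25 measured iron genes, 23 were above background, and the lowest were Ftmt, the mitochondrial ferritin, and Hamp, the liver hormone hepcidin, at the 40.4th and 10.3rd percentiles. The marker Tfrc thus read high in all 3 arrays.

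Membrane genes were above background for all 33 measured members. Slc4a1, the band 3 anion exchanger that anchors the red cell skeleton, stood at 14.22, 14.19 and 14.20, a spread of under 0.1 log2 units. Mpp1, a scaffold of the skeleton, gave 12.98, 13.33 and 13.24, and Rhd, of the Rh complex, 13.36, 12.84 and 13.13. Cd47, which signals to macrophages, had a mean of 13.15 ± 0.13 (SD, n = 3), while a second probe set of this gene read 11.75. The erythroid members of the skeleton families led their families: Ank1 at 12.70 against 6.67 for Ank2, and Sptb at 12.23 against 8.37 for Sptbn1. Add1, Add2 and Add3, the adducins, stood at means of 11.72, 11.06 and 9.58. Add3 was unlike the other adducins across arrays, at 9.46, 10.45 and 8.84, with replicate 2 highest and replicate 3 lowest. At the low end were Aqp3, a water and glycerol channel, and the adhesion protein gene Bcam, near the median of all genes at the 51.0th and 50.8th percentiles. Epb41 was not analysed here.

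Globin genes can be described only in part, because the probe sets of the adult alpha and beta chains carry several symbols and were not named, and Ahsp was not analysed here. Of 6 measured members, the theta gene Hbq1b was the one high signal, at 11.68, 12.06 and 11.82, the 98.1st percentile. Its near copy Hbq1a had a mean of 8.38 ± 0.61 (SD, n = 3), and probes of such similar genes may share signal. The embryonic chains were low, with means of 7.18 for Hba-x, 6.22 for Hbb-y and 5.78 for Hbb-bh1, the last below background. Hbb-bh2 had a mean of 6.92.

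Of the late maturation list, which covers terminal maturation, organelle clearance and ubiquitin enzymes, 30 of 31 genes were above background. Tent5c, a poly(A) polymerase, stood at 14.12, 14.24 and 14.34, and Bnip3l (Nix), the receptor that removes mitochondria, at 14.08, 14.25 and 14.30. Xpo7, a nuclear export receptor, followed at 13.83 ± 0.04 (SD, n = 3). These signals rank beside Alas2 and Slc4a1 and differ little between the arrays. Car2 and Car1, the carbonic anhydrases of the red cell, had means of 13.90 and 13.78 and overlapped over the arrays. Car3, Car4 and Car12 of the same family had means of 6.27 or less and did not pass the background level in all 3 arrays. Alox15, a lipoxygenase linked to mitochondrial breakdown in reticulocytes, was the lowest member at 5.66, 6.08 and 6.59.

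Erythroid transcription factors were all above background, with a median at the 93.5th percentile. The bridging factor Lmo2 stood at 12.81, 12.70 and 12.72, and the repressor Gfi1b at 12.75, 12.47 and 12.47. Klf1, which activates adult beta globin, gave 12.28, 11.72 and 12.05, and overlapped with Klf3, a repressor of the same family, at 12.14, 12.13 and 12.01. Foxo3, a stress and maturation factor, had a mean of 12.03 ± 0.09 (SD, n = 3). Gata1, the central erythroid factor, stood at 11.67, 11.04 and 11.34, the 96.9th percentile, highest in replicate 1 and lowest in replicate 2. No other measured GATA gene came near it: Gata4, Gata5 and Gata2 had means of 6.75, 6.58 and 6.35, just over background, and Gata3 and Gata6 did not pass it. Since Gata4 and Gata5 belong to heart and gut, these values show how little a signal just over the level says. Myb, a factor of dividing progenitors, was among the lowest of the list at 8.42, 7.84 and 7.64.

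The receptors read at different heights. Epor, the erythropoietin receptor, stood at 11.41, 11.11 and 11.38, the 96.8th percentile, and Kit, the stem cell factor receptor of earlier progenitors, at 8.22, 7.67 and 7.67, the 71.3rd. In the list of Epo and Kit signalling genes, 26 of 29 were above background (58.0% of all genes), with a median percentile of 79.9. Downstream of Epor, the survival gene Bcl2l1 (Bcl-xL) reached 12.61, 12.78 and 12.93, and the kinase gene Pim1 12.49 ± 0.09 (SD, n = 3). These were the highest of the list, and not all its members read high. Socs3, Cish, Id1 and Socs2 had means of 7.13, 6.31, 6.29 and 6.09, and Socs2 did not pass the background level in all 3 arrays. Bcl2l1 lay clear of Mcl1, at 10.31, 10.31 and 9.76, and of Bcl2, at 9.75, 10.46 and 9.34, which overlapped with each other. Stat5b and Stat5a, the transcription factors activated by the receptor, had means of 8.55 and 8.38 and could not be ordered, since their arrays overlapped. Pik3r1, a regulatory subunit of phosphoinositide 3-kinase, had a mean of 10.73. Osm and Bmpr1a, a cytokine and a bone morphogenetic protein receptor, were the lowest members at 5.69 and 3.75. In the stem and progenitor list 4 of 15 genes were above background (58.0% of all genes). Msi2, an RNA-binding protein, stood at 8.69 and the lowest members Cd34 and Angpt1 at 4.92 and 3.59.

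**Figure D2:**
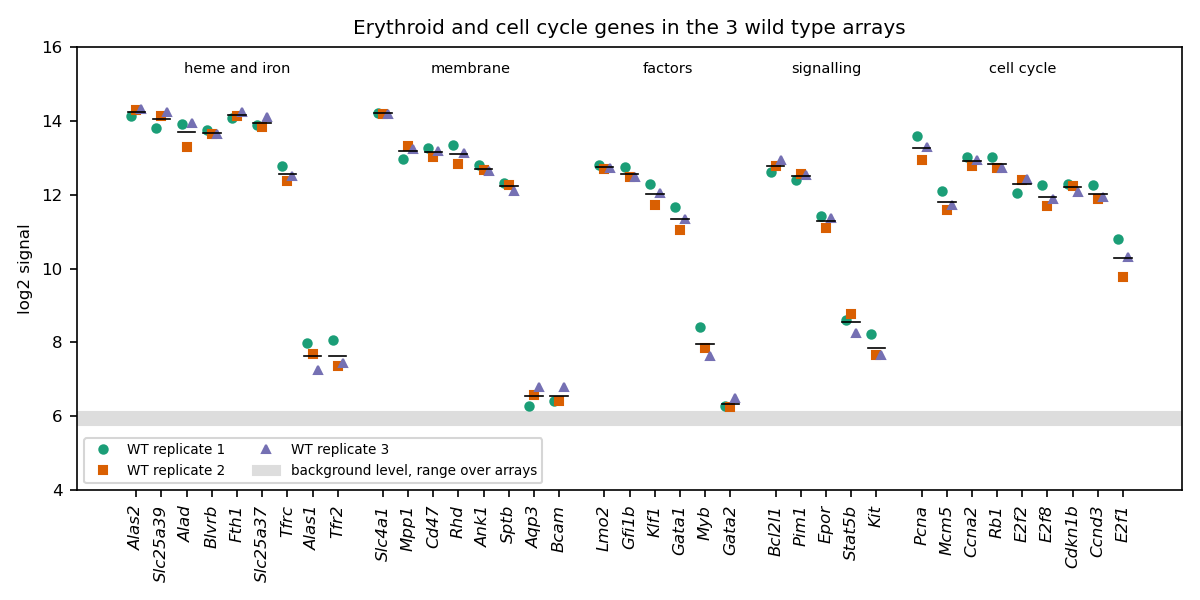
Log2 signal of erythroid and cell cycle genes in the 3 wild type arrays. Markers are arrays, short black lines are means, and the grey band is the range of the background level over the arrays (5.75 to 6.13); Alas2, Slc4a1 and Tfrc stand far above it, Alas1, Tfr2 and Kit between 7 and 9, and Gata2 just over it.

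Cell cycle genes were nearly all above background, including all 50 of the DNA replication list and all 43 of the mitosis list, which had median percentiles of 88.5 and 93.3. Pcna, the sliding clamp of the replication fork, stood at 13.59, 12.93 and 13.28, and Mcm5, a subunit of the replicative helicase, at 12.09, 11.58 and 11.73. Mcm7 and Mcm2, of the same helicase, had means of 11.76 and 11.74. In all of these replicate 1 was the highest array. Recql4 and Gmnn were the lowest replication genes, at 7.17 and 6.83. Among mitotic genes, Ccna2 (cyclin A2) gave 13.03, 12.78 and 12.94, and Ube2c, the ubiquitin enzyme of the anaphase-promoting complex, 12.54, 12.71 and 12.79, lowest in replicate 1. Nusap1, a spindle protein, had a mean of 12.67 ± 0.04 (SD, n = 3), and Cdc25b, a phosphatase that activates cyclin-dependent kinases, 12.62 ± 0.20. Cdc25c and Spc24 stood lowest at 7.89 and 7.87.

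Replication and mitosis genes shared an array pattern. All 50 replication genes and 40 of 43 mitosis genes were highest in replicate 1, compared with 43.4% of all genes above background. After quantile normalization, which gives the arrays the same distribution, the counts were 49 and 36, against 35.5% of all genes. The order replicate 1, then 3, then 2 was found in 37 replication and 34 mitosis genes, and in 17.1% of all genes above background. Relative to each gene's mean, the median replication gene stood 0.39 higher in replicate 1, and 0.25 and 0.12 lower in replicates 2 and 3, on the log2 scale. Of 25 histone genes, 7 had that order, 16 were highest in replicate 3 (26.0% of all genes) and 17 were so after quantile normalization (33.1%). Replicate 2 was the lowest array in 16 of them, but the share of all genes lowest there was not computed, so this count has no reference. H4c4, a histone H4 gene, stood at 14.52, 14.45 and 14.50, and H2ac15, H4c14 and H2bc14 had means of 13.88, 13.73 and 13.72. Histone genes are near-identical copies, so their probe sets may not separate them; the lowest were H2bc21 at 7.16 and H3c7 at 5.10.

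The genes altered in the other groups of the series were both high in the wild type. Rb1, the retinoblastoma pocket protein that restrains E2F factors, stood at 13.02, 12.74 and 12.71, and E2f8, an atypical repressor E2F, at 12.28, 11.70 and 11.88. Rb1 ranked at the 99.3rd percentile and was the highest of 13 measured E2F, DP and pocket protein genes. Its relatives Rbl1 (p107) and Rbl2 (p130) had means of 10.51 and 8.47. Tfdp2, a dimerization partner of E2F, and E2f2, an activator E2F, followed Rb1 at 12.37 and 12.30, with E2f4, a repressor E2F, at 11.71. E2f2 was lowest in replicate 1, at 12.06, 12.39 and 12.43, whereas E2f1 was highest there, at 10.79, 9.78 and 10.31. Tfdp1 had a mean of 10.35, and E2f7, the other atypical member, 9.96. The remaining members E2f3, E2f6 and E2f5 had means of 7.91, 7.89 and 6.12, and E2f5 did not pass the background level in all arrays.

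Entry into S phase is set by cyclins, their kinases and the inhibitors of those kinases. Ccnd3 was the leading D cyclin at 12.27, 11.88 and 11.94, above Ccnd2 at 8.67 and Ccnd1 at 7.99 in every array. Cdk4, their kinase partner, stood at 11.23 and Cdk6 at 8.03. Ccne1 (cyclin E1) and Cks2, a small kinase subunit, had means of 11.49 and 11.42. Mycn and Mnat1 were lowest, at 6.26 and 5.70. Among inhibitors Cdkn1b (p27) was the highest, at 12.30, 12.25 and 12.07, the 98.7th percentile, although its other probe set read 7.49, and Cdkn2c (p18) followed at 11.57, 11.04 and 11.38. Cdkn2d (p19) had a mean of 9.40, and Cdkn2b, Cdkn1c and Cdkn2a lay at 6.70, 6.57 and 6.51, close to background. Cdkn1a was not analysed here.

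Promoter windows of RefSeq (GRCm38.p6), 250 bases before to 50 after the start of a gene, were searched on both strands for short motifs known from these gene classes, chosen with the expression values known. The GATA motif was searched as AGATAA, with TGATAA as its second form. Letters of the KLF motif were CCACACCC, and those of E2F either TTTGGCGC or TTTCCCGC. TTTGAA stood for the cell cycle homology region (CHR), which is bound in promoters of late cell cycle genes, and CCAAT for the site of NF-Y; none of these motifs contains another. Windows were found for 75 of the 93 replication and mitosis genes. Of their 87 windows, 60.9% held CCAAT, 43.7% the CHR letters and 16.1% an E2F motif, and over the 19177 windows of all ranked genes the shares were 37.4%, 14.85% and 2.21%. For 70 of 85 heme, membrane and late maturation genes, 91 windows were found. Here 18.7% held a GATA motif, 2.2% the KLF motif and 30.8% CCAAT, next to 14.7%, 3.73% and 37.4% over all windows. These are counts of letters and not of bound sites. Below, the highest gene with a window is shown for each of 4 lists, heme, membrane, replication and mitosis, and capitals mark every match to the motifs searched. Alas2 (chrX:150547167-150547466, plus strand) and Mpp1 (chrX:75130967-75131266, minus strand) hold the GATA letters as TTATCT, on the opposite strand, and Mpp1 also 1 CCAAT match. Pcna (chr2:132253131-132253430, minus strand) holds 1 CCAAT match, and Ube2c (chr2:164769679-164769978, plus strand) holds 6, of which a pair overlaps on opposite strands, together with the CHR letters as TTCAAA.
Alas2: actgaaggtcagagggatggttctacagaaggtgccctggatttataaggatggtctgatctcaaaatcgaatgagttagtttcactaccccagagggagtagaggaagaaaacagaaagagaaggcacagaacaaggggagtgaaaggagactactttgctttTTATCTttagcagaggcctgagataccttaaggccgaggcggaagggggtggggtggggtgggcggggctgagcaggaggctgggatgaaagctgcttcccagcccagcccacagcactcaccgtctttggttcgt
Mpp1: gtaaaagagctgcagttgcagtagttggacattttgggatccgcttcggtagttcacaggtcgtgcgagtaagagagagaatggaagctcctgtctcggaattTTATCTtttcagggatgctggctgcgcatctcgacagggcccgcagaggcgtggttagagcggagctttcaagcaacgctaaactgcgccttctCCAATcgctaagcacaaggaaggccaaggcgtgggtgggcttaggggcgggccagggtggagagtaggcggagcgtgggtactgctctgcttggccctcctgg
Pcna: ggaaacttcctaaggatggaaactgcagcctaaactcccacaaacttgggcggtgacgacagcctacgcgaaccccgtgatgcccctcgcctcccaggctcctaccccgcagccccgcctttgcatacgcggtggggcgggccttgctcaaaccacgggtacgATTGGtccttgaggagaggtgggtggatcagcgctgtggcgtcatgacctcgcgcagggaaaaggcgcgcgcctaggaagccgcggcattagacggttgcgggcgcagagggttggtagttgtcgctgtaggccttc
Ube2c: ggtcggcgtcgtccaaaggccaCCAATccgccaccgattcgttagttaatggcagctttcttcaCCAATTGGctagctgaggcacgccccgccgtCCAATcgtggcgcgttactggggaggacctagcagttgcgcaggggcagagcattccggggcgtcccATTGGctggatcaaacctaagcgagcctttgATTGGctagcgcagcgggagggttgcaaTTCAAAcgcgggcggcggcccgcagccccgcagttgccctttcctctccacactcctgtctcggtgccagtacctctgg

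Red cell metabolism was led by its characteristic enzymes. Bpgm, which makes the 2,3-bisphosphoglycerate that loosens oxygen from hemoglobin, stood at 12.80, 13.29 and 13.24, and Slc16a1, a lactate carrier, at 13.15, 12.55 and 12.97. Hk1, the red cell hexokinase, gave 12.68, 12.83 and 12.59, while Hk3 and Hk2 had means of 6.80 and 5.90; a second Hk1 probe set read 10.70. Pklr, the pyruvate kinase of liver and red cells, led Pkm in every array, although the margin was small in replicate 2, at 9.22 against 8.87; their means were 9.46 and 8.60. Ldha, a lactate dehydrogenase subunit, had a mean of 10.57, and Ldhb and Ldhc, at 5.51 and 4.66, were below background. Pfkm led the phosphofructokinases at 8.55, followed by Pfkl at 7.82 and Pfkp at 6.88. Aldoa, the aldolase of glycolysis, had a mean of 10.76. As a list, glycolysis had a median percentile of 80.2, with 19 of 24 genes above background. Gapdh, Eno1 and Gpi1 were not analysed here.

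Slc2a4, the insulin-responsive glucose transporter, gave the highest signal of the 4 transporters listed, at 10.66, 9.80 and 10.65. Slc2a1, a widely used transporter, gave 9.61, 9.93 and 9.20. In replicate 2 the order was turned, so the pair overlapped. Slc2a3 followed at 7.85, and Slc2a2 did not pass the background level at 5.22.

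Antioxidant genes were high, with 23 of 24 above background and a median percentile of 93.2. Gpx1, a glutathione peroxidase, stood at 14.31, 14.18 and 14.32, catalase (Cat) at 13.93, 14.09 and 14.04, and thioredoxin (Txn1) at 13.93, 13.88 and 13.90. Prdx2, the abundant red cell peroxiredoxin, gave 13.72, 13.67 and 13.88. It lay above Prdx3, Prdx1 and Prdx4, with means of 10.83, 9.98 and 7.07, in every array. The lowest members were Gss, the glutathione synthetase, at 7.34 and Gpx3, the plasma peroxidase, at 6.19.

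Mitochondrial and biosynthetic genes were broadly above background. All 56 oxidative phosphorylation genes and all 19 genes of the TCA cycle passed, with median percentiles of 90.1 and 80.5. Cox6c and Cox7b, subunits of cytochrome oxidase, had means of 13.28 and 13.04, and Ndufs7 of complex I 12.74. Ogdh, which feeds succinyl-CoA to the cycle and to heme synthesis, had a mean of 12.31, and Idh3g and Mdh2 of the same cycle 11.99 and 11.94. Oxidative phosphorylation also shows how scaling between arrays enters such counts. As deposited, 40 of 56 genes were highest in replicate 1 (43.4% of all genes above background). After quantile normalization 23 were highest there (35.5% of all genes), and 26 were highest in replicate 3 (33.1%). In nucleotide synthesis the highest genes were Rrm2 and Rrm1, the ribonucleotide reductase subunits, at 12.74, 12.06 and 12.40 and at 12.40, 11.77 and 12.07. Both were highest in replicate 1 and lowest in replicate 2. In that list all 26 genes were above background, and 8 had the order replicate 1, then 3, then 2 (17.1% of all genes above background). Cholesterol and fatty acid genes were lower, with a median percentile of 68.6, but Scd1, the stearoyl-CoA desaturase, reached 12.12, 12.34 and 11.77, well over Fdft1, the squalene synthase, at 10.53 ± 0.18 (SD, n = 3).

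Protein production and breakdown differed in rank. Ribosomal protein genes had 52 of 53 members above background and a median percentile of 97.9, led by Rps6, Rpl10, Rpl21 and Rpl28 at means of 13.79, 13.65, 13.56 and 13.53. These genes varied least of all lists of over 20 genes, with a median range of 0.24 log2 units over the arrays. Rplp2 and Rpl12 were the exceptions at 6.18 and 6.05, and their many processed copies make such a probe set value uncertain. Proteasome genes had 37 of 39 members above background and a median percentile of 87.1, led by Psmb3 and Psmb5, subunits of the catalytic core, at 12.18 and 12.12. The members that failed were Psma8 and Psmb11, forms specific to testis and thymus, at 4.74 and 5.50.

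Genes of other spleen cells were present in the sorted cells' signal, and B cell genes most of all. All 19 measured B cell genes were above background, with a median at the 93.5th percentile, the same as for the erythroid transcription factors. Cd79b and Cd79a, the signalling chains of the B cell receptor, stood at 12.48, 13.20 and 12.12 and at 12.01, 12.79 and 11.64. Cd37, a tetraspanin of B cells, gave 11.75, 12.43 and 11.25, and Fcmr, the receptor for immunoglobulin M, 11.49, 12.59 and 11.06. In each of these genes replicate 2 was the highest array and replicate 3 the lowest. The 9 MHC class II genes showed the same order, among them Cd74, the invariant chain, at 13.06, 13.57 and 12.75. H2-Aa stood at 12.42, 13.01 and 12.17, and H2-Ab1 at 11.76, 13.06 and 11.21. In a sample of mixed RNA, fewer cells of a type and less RNA per cell cannot be told apart, so these signals do not give a share of B cells. Ighd and Iglc1 were not analysed here.

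The array order of the B cell genes was uniform. All 19 B cell and all 9 MHC class II genes were highest in replicate 2 and lowest in replicate 3, an order found in 22.3% of all genes above background, and none changed its highest array after quantile normalization. Mean signal of the B cell list was 10.32, 11.26 and 9.79 in replicates 1, 2 and 3, and that of the MHC class II list 10.61, 11.82 and 10.15. Among list genes above background, the widest ranges over the arrays lay here. H2-Eb1, a class II beta chain, stood at 8.94, 12.07 and 8.31, and Cd72, a B cell co-receptor, at 8.29, 10.77 and 7.77. Fcer2a (CD23), Fcrla and H2-Ob followed with ranges of 2.12, 1.98 and 1.97 log2 units. Over all genes above background, 590 or 5.1% had a range over 1 log2 unit, and of the B cell list 16 of 19 did. The widest ranges of genes outside the lists included the immunoglobulin segments Igkv5-43 at 8.73, 10.71 and 7.01, Igkv6-20 at 10.39, 11.63 and 8.49, and Ighg3 at 7.46, 8.27 and 6.14. Also among the 10 widest were D17H6S56E-5, B3gnt5 and Gdpd1, again highest in replicate 2. Adgrg1, an adhesion receptor, and Ifi203, an interferon-induced gene, went another way, with 9.30, 8.25 and 6.82 and with 8.63, 7.98 and 6.33. Of the 50 widest genes, 43 were highest in replicate 2 (30.6% of all genes above background) and 46 lowest in replicate 3 (48.7%). The part of B cell RNA in differences between the replicates was not tested beyond these values.

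**Figure D3:**
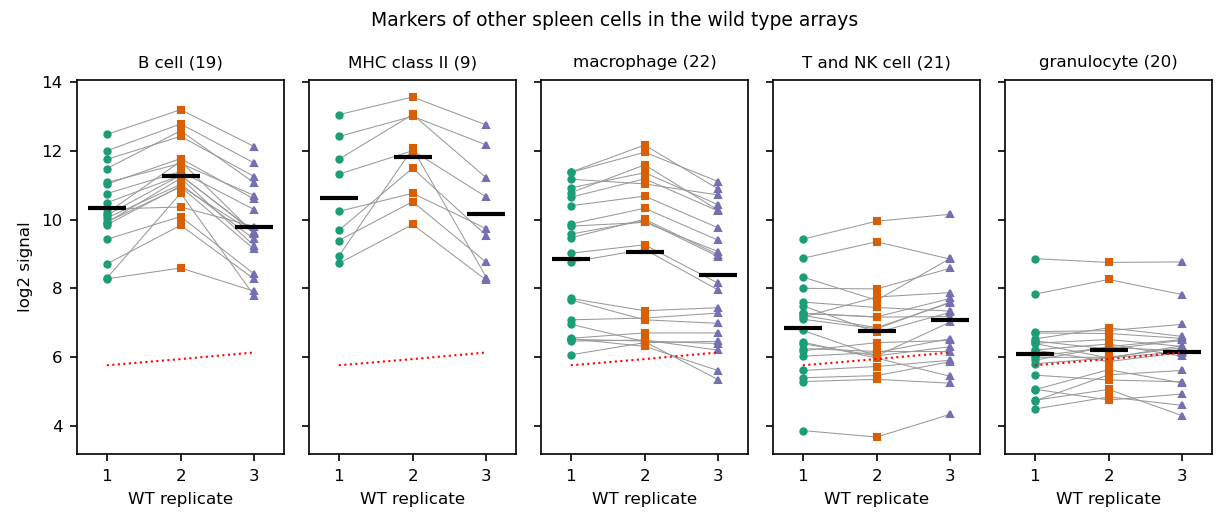
Log2 signal of markers of other spleen cells in wild type replicates 1, 2 and 3. Grey lines join the values of a gene, black bars are list means, and red dots mark the background level; all B cell and MHC class II genes peak in replicate 2, with list means of 11.26 and 11.82 there, and granulocyte genes lie near background.

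Macrophage genes came next, with 20 of 22 above background (58.0% of all genes) and a median percentile of 85.5. At the 99th percentile level 16 of the 22 passed (40.6% of all genes). Vcam1, the adhesion molecule of erythroblastic island macrophages, stood at 11.38, 11.96 and 11.11, and C1qb, a complement chain of macrophages, at 11.38, 12.17 and 10.89. Csf1r, the receptor for macrophage growth factor, gave 10.92, 11.37 and 10.43, and Axl, a receptor for dying cells, 11.18, 11.04 and 10.72. In 14 of the 20 genes replicate 2 was the highest (30.6% of all genes above background), and in 16 replicate 3 was the lowest (48.7%). Cd163, a receptor for hemoglobin and haptoglobin, and Ms4a7 were the lowest of the list, at 6.24 and 6.14. Like the B cell genes, most macrophage markers were thus lowest in replicate 3.

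T and NK cell genes were weaker and ordered differently. Of 21 measured genes 16 were above background (58.0% of all genes), with a median percentile of 61.5. At the 99th percentile level 11 of the 21 passed (40.6% of all genes). Cd3e, a chain of the T cell receptor complex, stood at 9.43, 9.95 and 10.15, and Cd4 at 8.87, 9.35 and 8.85. Nkg7 and Cd3g had means of 8.28 and 8.19. Replicate 3 was highest in 10 of the 16 genes (26.0% of all genes above background), so the array lowest in B cell and macrophage signal was not lowest in T cell signal. The background level was also highest in replicate 3, at 6.13. Some of the 10 genes lay near it, such as Zap70 and Cd247 with means of 6.36 and 6.23. Others, among them Cd3e, Nkg7 and Cd3g, lay well above it. At the other end were Gzma and Klrb1c, at 5.29 and 3.95.

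Markers of other blood lineages read lower, with exceptions among dendritic and plasma cell genes. Granulocyte genes were above background in 12 of 20 cases, near the 58.0% of all genes, at a median percentile of 43.0. Ngp at 8.79 and Lcn2 at 7.96 were the highest, and Chil3 and Mmp8 at 4.69 and 4.63 the lowest. Dendritic cell genes passed in 10 of 13 cases, led by Ccr7 at 10.12 and Irf8 at 9.89, genes that B cells also use. Cd209a and Itgax followed at 9.22 and 8.14. Plasma cell genes passed in 8 of 9 cases, at a median percentile of 80.3, led by Igha at 10.57, 11.83 and 10.62. Xbp1, Jchain and Mzb1, genes of antibody secretion, followed at 10.58, 9.70 and 8.74. Their defining factor Prdm1 was at 6.41 and did not pass in all 3 arrays. Of the megakaryocyte list 8 of 11 passed, with Gp9, a platelet glycoprotein, at 9.35, while Pf4 was at 5.94 and Clec1b at 4.27. Of the mast cell, basophil and eosinophil list 3 of 14 passed, with Ccr3 at 8.37 the highest and Fcer1a and Ms4a2, the mast cell receptor chains, at 3.79 and 3.78. Of the stroma and endothelium list 11 of 23 passed, led by Pecam1 at 8.42, 9.26 and 7.79. At the stricter 99th percentile level, 3 of 20 granulocyte, 6 of 13 dendritic and 5 of 9 plasma cell genes passed. So did 4 of 11 megakaryocyte genes, 1 of 14 of the mast cell list and 4 of 23 of the stroma list, and 40.6% of all genes.

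**Figure D4:**
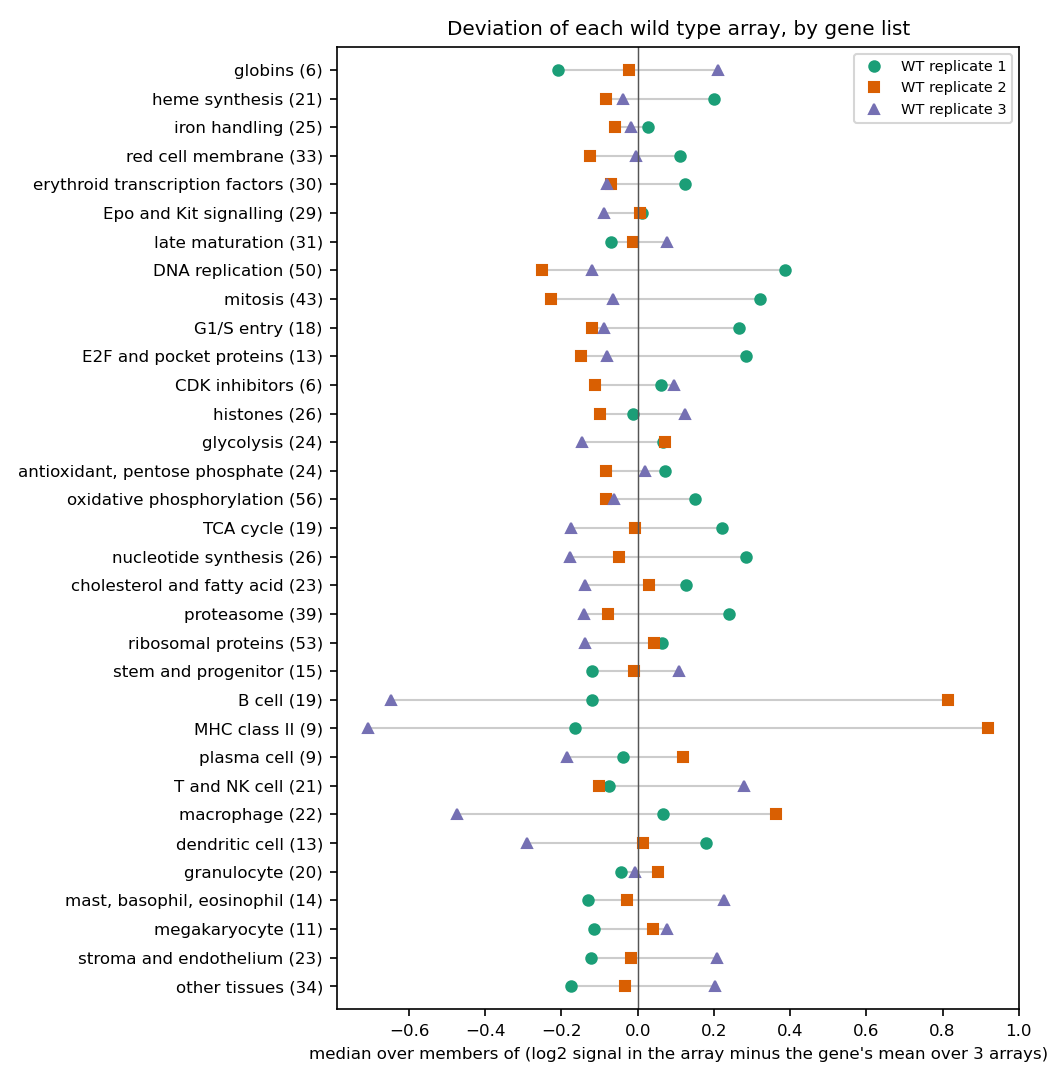
Median over list members of the log2 signal in an array minus the mean of that gene over the 3 arrays, by gene list. Markers are the 3 wild type arrays and grey lines their range; B cell and MHC class II lists span the widest range, from -0.65 to 0.81 and from -0.71 to 0.92, and replication genes stand at 0.39 in replicate 1.

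Sex-linked genes read alike in all 3 arrays. Xist, the RNA that coats the inactive X chromosome of females, stood at 11.69, 11.71 and 11.74. The Y-linked genes Uty, Kdm5d and Eif2s3y were below background in each array, at means of 4.45, 4.45 and 3.10.

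MicroRNA genes gave weak signals as a class. Of 300 measured, 77 were above background (58.0% of all genes), with a median percentile of 16.6. A probe set of a microRNA gene reads the precursor region rather than the mature strand. The erythroid microRNAs are made from 1 cluster on chromosome 11 that holds Mir144 and Mir451a, and Mir142 is a general blood cell microRNA; these 3 were chosen after their values were seen. Mir144 stood at 7.48, 7.63 and 8.65, highest in replicate 3, and Mir451a at 7.18, 7.75 and 7.71. Mir142 stood at 8.36, 9.53 and 8.08, in the array order of the B cell genes. Their mature sequences from RefSeq (GRCm38.p6) are given with the seed, bases 2 to 8, in capitals, and no seed is shared among them.
mmu-miR-144-5p: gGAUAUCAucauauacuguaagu
mmu-miR-144-3p: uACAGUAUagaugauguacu
mmu-miR-451a: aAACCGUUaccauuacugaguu
mmu-miR-142a-5p: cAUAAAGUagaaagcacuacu
mmu-miR-142a-3p: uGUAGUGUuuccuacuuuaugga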

How the data were processed

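The authors' deposited table holds 1 log2 value per probe set and array from single-channel Affymetrix arrays. The log2 scale was inferred from the range of the values. MAS5 is named, without a version, per the submitters' processing notes, but is not usual for this array type, so the software that made the values is uncertain. How background was corrected and arrays were scaled is not stated in the labels. Deposited values were ranked unchanged, without a pseudocount. RNA was extracted from sorted cells and biotin-labelled, per the labels' protocols.

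Of the probe sets, 21789 had 1 symbol, 1621 several and 12147 were not listed; those with several or none were left out. Gene numbers matched 21698 symbols to current RefSeq names. For 999 genes with several probe sets the one with the highest wild type mean was used. The members and lists (35) were chosen with earlier results of these data known. Genes named were drawn, with fewer than the rule allows, from the 25 highest, the 4 highest and 2 lowest of each list, the members of chosen families, the globin, E2F, kinase inhibitor and sex-linked lists, selected erythroid genes, and those with the widest range (10 of all genes, 5 within lists). No test was made, as there is 1 group of 3 arrays, whose number limits the precision. Percentiles and quantile normalization were computed in Python 3.11.15 with pandas 2.3.3, numpy 2.4.6 and scipy 1.17.1, and the ranking code was tested on simulated data.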

Additional observations from a re-analysis of the deposited data

How the results depend on the processing

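Of 92 alternatives over 12 results, 77 stayed within the spread between replicates or, for the count of genes above background, within 1.5 times. The other 15 moved. Some of the 77 were fixed in advance. Centring each array on its median cannot change the rank of a mean or a count over a level taken in the same array. Quantile normalization keeps the order within an array, and it too left that count at 11566. Removing the lowest 40% of probe sets before ranking (13050 genes left) lowered percentiles by its construction: heme to 94.96, membrane to 96.64, replication to 82.4, mitosis to 89.75, oxidative phosphorylation to 84.9, ribosomal proteins to 96.73, B cell to 90.11, macrophage to 77.81, T and NK to 42.0, granulocyte to 17.47, and the lowest correlation to 0.966. Averaging a gene's probe sets gave 96.73 for ribosomal proteins. With the 95th percentile of genes of other tissues as the background level, 6716 genes passed, and with the 99th percentile of receptor genes 8097; the cause was not tested. Leaving out 1 replicate each gave ranges of 96.4 to 97.17 for heme and 41.36 to 42.99 for granulocyte genes. Quantile-normalized counts of the highest array and the list counts at the 99th percentile level were added after seeing the data. No paired analysis was possible because all results come from 1 group, with no test. Signals just over the background level cannot be told from other-tissue genes.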

Other observations

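Some genes typical of other tissues read well above background. Gfap, the intermediate filament of astrocytes, stood at 8.95, 8.26 and 8.73 in replicates 1, 2 and 3, the 81.0th percentile, and Mbp, a myelin protein with a blood cell form, at 8.17, 7.87 and 7.86. These were the highest of the 34 genes of other tissues, and the next, Prm2, had a mean of 6.69. Nkx2-5, a factor of heart and spleen development, had a mean of 7.47. It was highest in replicate 3 and lowest in replicate 1, as were the background level and 10 of the 12 other-tissue genes above background (19.5% of all genes above background had that array order).

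Within 1 lineage, markers did not always read at the same height. Cd3e had a mean of 9.85 and Cd3g 8.19. Il5ra, a receptor of eosinophils that is also known from B-1 cells, stood at 5.13, 6.96 and 4.80, and so was over the background level in replicate 2 alone; it was chosen after its values were seen. Replication and mitosis genes were highest in replicate 1, B cell genes in replicate 2, and 17 of 30 late maturation genes in replicate 3 (26.0% of all genes above background), or 15 after quantile normalization (33.1%).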
